A study of Arabidopsis thaliana with 12 samples.

Results

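The Aux/IAA and ARF genes are the paired families of nuclear proteins through which plant cells read auxin, and binding of the AT-hook protein SOB3 to their genomic neighbourhoods was followed through a short day. The members were 44 loci taken by name, 29 Aux/IAA genes (IAA1 to IAA20 and IAA26 to IAA34) and 15 ARF genes (ARF1 to ARF11 and ARF16 to ARF19), of 27432 protein-coding nuclear genes of Arabidopsis thaliana, and all 44 were found in the annotation. A peak belonged to a gene if it overlapped the window made of the gene body, 2000 bp upstream and 1000 bp downstream by at least 1 bp. The SOB3-GFP chromatin was precipitated with an antibody to GFP from whole Columbia seedlings of the genotype ProSOB3::SOB3-GFP sob3-4, grown in 8 h light and 16 h dark. Seedlings were taken at ZT4 (4 h after lights on, 5 days old), ZT9 (1 h into the dark, 5 days old) and ZT24 (the next dawn, 6 days old), with 3 biological replicates each and 1 input per time point. All groups therefore carried the same fusion, driven by the SOB3 promoter in the sob3-4 mutant, and no plants without GFP were analysed here. The 9 ChIP peak lists held 20988 to 24850 peaks each. In whole seedlings, binding in fewer cells and weaker binding in every cell cannot be told apart.

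In the absence of auxin, Aux/IAA proteins sit on ARF transcription factors and recruit TOPLESS corepressors, which keeps ARF target genes off. Auxin joins an Aux/IAA protein, through its degron, to an F-box receptor of the TIR1/AFB family, and the Aux/IAA protein is then degraded. ARFs bind AuxRE words in DNA. Many Aux/IAA genes are themselves switched on by auxin, so the family forms a feedback loop, and in seedlings it takes part in hypocotyl elongation.

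The sequences under strong upstream sites, and under weaker upstream sites of IAA27 and IAA29, are shown first. Each line gives sequence around the summit of a site, up to 200 bp, stopped at any annotated gene, from the RefSeq genome TAIR10.1, whose nuclear chromosomes are those of TAIR10, read in the direction of the member gene. Capitals mark the words of 4 motif sets, searched on both strands. These were AuxRE (TGTCTC or TGTCGG), PIF-like (CACACG or CACATG or CACGCG or CACGTG), TCP-like (GGACCA or GGCCCA or GGTCCA) and AT-rich (AAATAAAA or AAATAATA or ATATAAAA or ATATAATA). AT-rich words can overlap each other, and a line without capitals holds none of the words.
IAA2: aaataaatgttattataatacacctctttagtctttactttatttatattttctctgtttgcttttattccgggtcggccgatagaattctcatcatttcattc
IAA16: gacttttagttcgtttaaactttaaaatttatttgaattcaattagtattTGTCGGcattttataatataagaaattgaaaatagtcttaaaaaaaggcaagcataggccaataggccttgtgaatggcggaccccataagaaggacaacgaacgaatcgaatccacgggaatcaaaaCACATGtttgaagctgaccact
IAA8: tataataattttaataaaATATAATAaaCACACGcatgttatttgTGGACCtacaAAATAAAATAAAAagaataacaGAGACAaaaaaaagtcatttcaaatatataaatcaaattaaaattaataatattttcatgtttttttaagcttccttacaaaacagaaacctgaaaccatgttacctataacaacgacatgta
ARF8: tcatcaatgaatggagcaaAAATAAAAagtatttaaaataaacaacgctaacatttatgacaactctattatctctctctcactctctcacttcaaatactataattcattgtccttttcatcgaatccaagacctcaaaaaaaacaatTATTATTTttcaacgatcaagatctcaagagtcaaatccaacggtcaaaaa
ARF17: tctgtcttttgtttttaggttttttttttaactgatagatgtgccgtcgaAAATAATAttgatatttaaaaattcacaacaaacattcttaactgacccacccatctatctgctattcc
ARF6: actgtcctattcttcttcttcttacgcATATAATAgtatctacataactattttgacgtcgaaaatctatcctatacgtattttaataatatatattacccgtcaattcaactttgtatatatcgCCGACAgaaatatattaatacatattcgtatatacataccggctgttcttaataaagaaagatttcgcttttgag
IAA27: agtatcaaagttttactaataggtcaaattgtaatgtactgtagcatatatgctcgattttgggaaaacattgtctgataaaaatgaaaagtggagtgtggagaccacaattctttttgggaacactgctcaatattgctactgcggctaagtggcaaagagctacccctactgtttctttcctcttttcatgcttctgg
IAA29: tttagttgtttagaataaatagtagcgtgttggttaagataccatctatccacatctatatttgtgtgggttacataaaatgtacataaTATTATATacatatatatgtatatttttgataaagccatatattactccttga

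The IAA2, IAA16, IAA8, ARF8, ARF17 and ARF6 sequences came from the strongest sites present in all 9 lists with the summit inside the window, upstream of the transcription start and outside every annotated gene. The IAA27 sequence came from the member site with the lowest adjusted p for fold rank between time points, a change that was not called by pileup rank (below). The IAA29 sequence came from a site missing from the ZT9 lists. The ARF2 site, with a mean percentile of 97.6 by fold enrichment, is not shown, because its summit lay in an annotated neighbouring gene. The IAA16 stretch (chr3:1291153-1291352, minus strand) held 1 AuxRE and 1 PIF-like word. The IAA8 stretch (chr2:9636093-9636292, plus strand) held words of all 4 sets. The IAA2 stretch (chr3:8182096-8182199, minus strand) and the IAA27 stretch (chr4:14326196-14326395, minus strand) held none, while those of ARF6 (chr1:10692848-10693047, minus strand), ARF8 (chr5:14629173-14629372, plus strand), ARF17 (chr1:29270701-29270819, plus strand) and IAA29 (chr4:15583190-15583331, plus strand) each held at least 1 AT-rich word. A match to a word is a description and not a binding site.

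SOB3-GFP peaks were found at nearly all members at every time of day. A gene was called bound at a time point if it had a peak in at least 2 of 3 lists. By this rule, 24 of 29 Aux/IAA genes (82.8%) and 15 of 15 ARF genes were bound at all 3 time points, beside 61.3% of all protein-coding genes. At ZT4, ZT9 and ZT24, 27, 25 and 27 Aux/IAA genes were bound, against 68.1%, 66.3% and 68.3% of all genes, and ARF genes numbered 15 at each time. A peak in all 9 lists was present for 22 Aux/IAA and 14 ARF genes, beside 52.4% of all genes, and no member lacked a peak in every list, as 20.3% of all genes did.

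Window length differed between the families, since ARF genes are long. The windows had a median of 4.74 kb for Aux/IAA genes, 7.53 kb for ARF genes and 5.08 kb for all genes. Among genes with windows in the same range of widths, 62.2% were bound at all 3 time points for the Aux/IAA range and 71.0% for the ARF range. In a promoter window of 1000 bp upstream to 100 bp downstream of the transcription start site (TSS), which has the same length for every gene, 21 Aux/IAA and 15 ARF genes were bound at all 3 time points, beside 45.0% of all genes. Counts are given as descriptions, because the members were a chosen list.

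The strength of a peak was read as the percentile of its fold enrichment among the nuclear peaks of its own list, so that 100 is the strongest peak. The mean over lists of the best peak in the window had a median of 71.9 over Aux/IAA genes and 80.9 over ARF genes, against 53.7 over the 21854 genes with any peak. Genes with a peak in fewer lists have weaker peaks, and among genes with a peak in all 9 lists the medians were 75.8 for Aux/IAA genes, 83.4 for ARF genes and 71.1 for all such genes. A mean percentile of 90 or more was reached by 5 Aux/IAA and 6 ARF genes, beside 9.31% of all genes. The Aux/IAA windows held a median of 2 sites (peaks of all lists merged where they overlapped) and ARF windows 3, against 2 over all genes. Pooled over windows, this came to 0.532 sites per kb for Aux/IAA genes and 0.423 for ARF genes, against 0.308 for all genes.

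**Figure D1:**
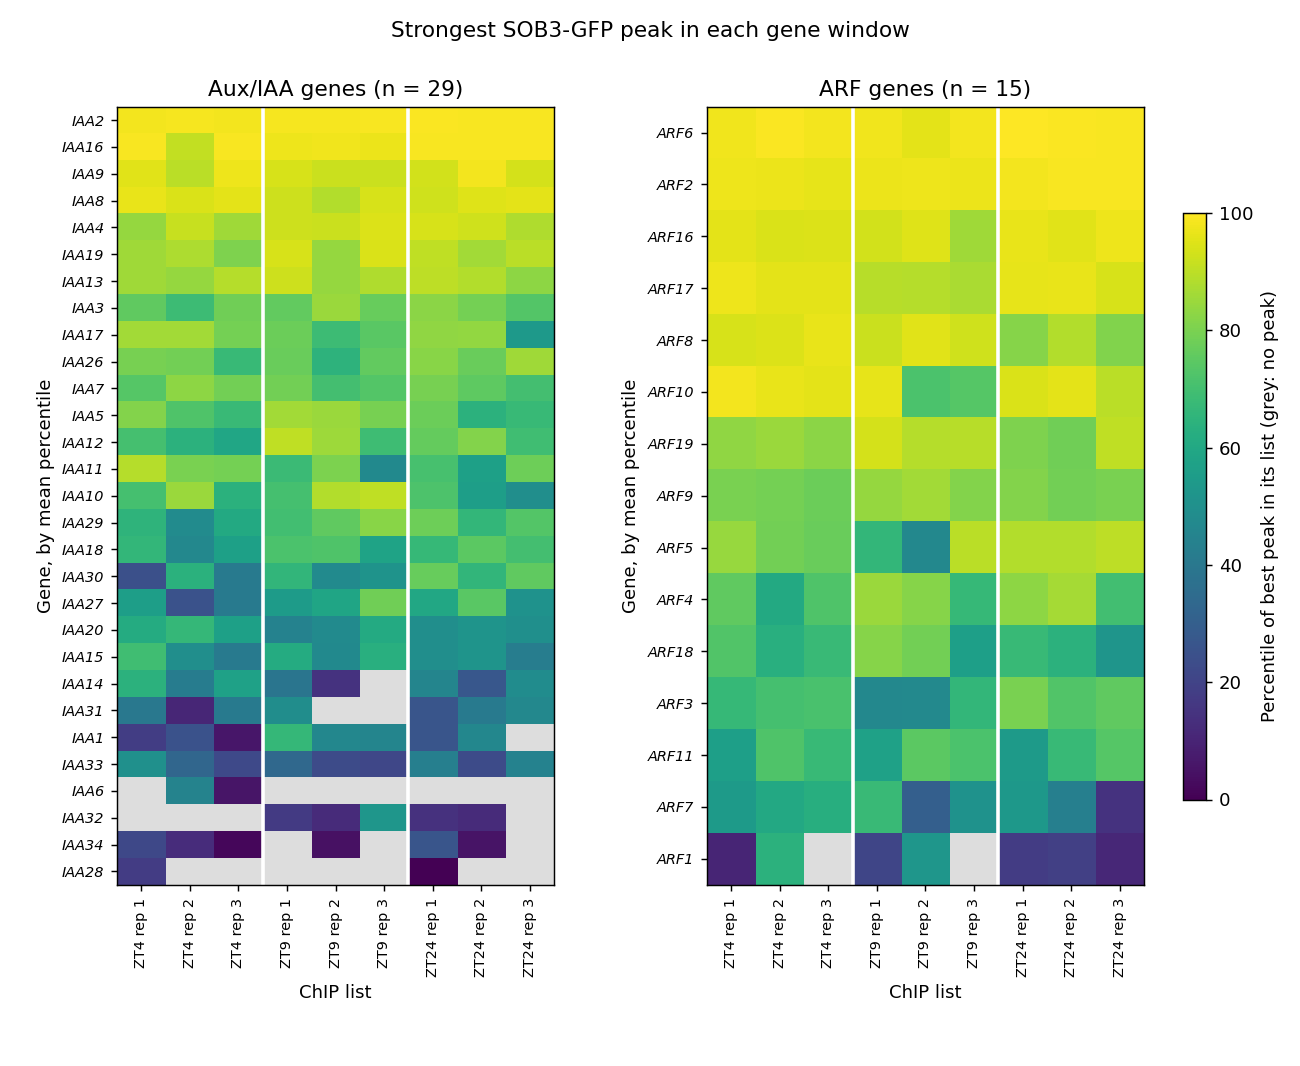
Percentile of the strongest SOB3-GFP peak in each gene window (colour, 0 to 100), by gene (rows, ordered by mean) and by ChIP list (columns), for 29 Aux/IAA genes on the left and 15 ARF genes on the right. Grey cells had no peak, and they lie in 7 Aux/IAA rows and in the ARF1 row.

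Within the Aux/IAA family, IAA2 had the strongest peak. IAA2 (AT3G23030, chr3:8180646-8182095, minus strand) encodes a degron-bearing repressor. Its best peak stood at percentiles 98.4, 98.8 and 98.2 in the ZT4 lists, 98.6, 98.7 and 99.1 in the ZT9 lists, and 99.6, 99.1 and 99.1 in the ZT24 lists, with a fold enrichment over background of 7.73 ± 0.780 (SD over 9 lists). All 9 lists therefore placed IAA2 among their strongest peaks. In 8 lists the best peak was a site spanning the TSS, with its summit 5 bp upstream, and the stretch shown above held none of the motif words. In ZT24 replicate 2 it was a second site, and the site at the TSS stood at 98.8 there. This second site, 2222 bp upstream of IAA2 with its summit just outside the window, had a mean percentile of 96.6, and another one 2010 bp downstream of the TSS, next to the start of the neighbouring gene, had 84.9.

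IAA16 (AT3G04730), another degron-bearing member, had its best peak 362 bp upstream of the TSS. The percentiles were 98.9, 90.7 and 99.1 at ZT4, 97.6, 97.8 and 97.2 at ZT9, and 99.2 in each of the 3 lists at ZT24. ZT4 replicate 2 alone fell below 97. A second site at its 3′ end, with a mean percentile of 92.5, had the TSS of the next gene as its nearest.

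IAA8 and IAA9 are closely related degron-bearing genes whose mean percentiles were 94.0 each, but their peaks lay in different places. IAA8 (AT2G22670) had a single site, 153 bp upstream of the TSS, with percentiles of 96.7, 94.3 and 95.7 in the ZT4 lists, 92.4, 88.5 and 94.0 in the ZT9 lists, and 92.8, 95.3 and 96.0 in the ZT24 lists. IAA9 (AT5G65670) had percentiles of 95.5, 89.7 and 97.3 in the ZT4 lists, 94.1, 92.0 and 92.0 in the ZT9 lists, and 93.3, 98.3 and 93.7 in the ZT24 lists. In all 9 lists the summit of this best IAA9 peak lay beyond the window edge, 2401 to 4328 bp upstream. Counting only peaks with the summit inside the window, the IAA9 mean fell to 77.1, while that of IAA8 stayed at 94.0.

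The strongest ARF peaks were as high as those of the strongest Aux/IAA genes. ARF6 (AT1G30330), a transcriptional activator with a role in hypocotyl and flower growth, had percentiles of 98.0, 99.3 and 98.4 in the ZT4 lists, 98.0, 96.1 and 98.4 in the ZT9 lists, and 99.7, 99.2 and 99.1 in the ZT24 lists, with a fold enrichment of 7.61 ± 1.18 (SD over 9 lists). The median summit was 1960 bp upstream of the TSS, with single lists between 953 and 2025 bp. ARF2 (AT5G62000), a repressor ARF that limits organ growth, had 97.5, 96.9 and 96.2 in the ZT4 lists, 96.9, 97.6 and 97.0 in the ZT9 lists, and 98.4, 99.2 and 99 in the ZT24 lists. The ARF2 summits lay 37 to 1958 bp upstream. Both genes stood above the 96th percentile in every list.

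ARF10, ARF16 and ARF17, whose transcripts are targets of the microRNA miR160, all had a mean percentile above 90. ARF16 (AT4G30080) had 96.0, 94.5 and 94.7 in the ZT4 lists, 93.0, 95 and 85.6 in the ZT9 lists, and 96.8, 95.6 and 97.4 in the ZT24 lists, from peaks whose summits lay outside its window in all 9 lists. ARF17 (AT1G77850) had 97.4, 95.8 and 96.0 in the ZT4 lists, 89.4, 88.9 and 87.2 in the ZT9 lists, and 96.2, 96.6 and 93.9 in the ZT24 lists, with the summit 1354 bp upstream. The 3 ZT9 values of ARF17 lay below the other 6, but no site in its window was called in the test of time points below. With summits inside the window only, the means were 80.4 for ARF10, 77.4 for ARF16 and 93.5 for ARF17.

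The same measure was then described by subgroup. The 23 Aux/IAA genes with a degron had a median percentile of 75.8 and 21 of them were bound at all 3 time points. The 6 genes without it (IAA20 and IAA30 to IAA34), whose proteins are not degraded in the usual way, had a median of 34.5 and 3 were bound at all 3 time points. Over all genes with windows in the Aux/IAA range the bound share was 62.2%, and the median was 53.7 for those with a peak, so the 3 of 6 lay near that share. Among ARF genes, the medians were 85.8 for the 5 activators (ARF5, ARF6, ARF7, ARF8 and ARF19), 93.5 for the 3 miR160 targets and 67.1 for the 7 remaining genes, grouped as repressors, against 58.1 for all genes with windows in the ARF range. In promoter windows the ARF medians were closer, at 77.5, 80.4 and 67.1 in the same order, against 45.9 for all genes in that range. The subgroups are small and no test was applied to them.

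The 8 members without a peak in all 9 lists were IAA1, IAA6, IAA14, IAA28, IAA31, IAA32, IAA34 and ARF1, beside 27.2% of all genes with a peak in 1 to 8 lists. IAA28 (AT5G25890), a repressor of lateral root formation, was the weakest, with a peak in ZT4 replicate 1 at the 17.8th percentile and one in ZT24 replicate 1 at 0.383, and no other list held one. It was not bound at any time point by the rule of 2 lists.

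IAA6 had a peak only at ZT4, at percentiles 44.7 in replicate 2 and 5.59 in replicate 3. IAA32 had no peak at ZT4, peaks at 17, 12.4 and 52.6 in the ZT9 lists, and at 14.3 and 12.4 in ZT24 replicates 1 and 2. A gene with a peak in 3 lists at one time point and none at another made up 1.98% of all genes, and IAA32 was the 1 such member. A list holds only peaks past its threshold, so that a missing peak is a signal under the threshold and not an absence of binding.

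IAA34 had peaks at 21.8, 12.8 and 1.69 at ZT4, at 4.35 in ZT9 replicate 2, and at 26.4 and 5.15 in replicates 1 and 2 at ZT24. IAA31 had 39.9, 10.9 and 41.1 at ZT4, 49.0 in ZT9 replicate 1 and none in the other ZT9 lists, and 26.4, 41.0 and 46.5 at ZT24. Both genes, which lack the degron, therefore missed the rule of 2 lists at ZT9 only.

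IAA1 had peaks at 18.3, 25 and 5.92 at ZT4, 66.7, 46.4 and 45.4 at ZT9, and 26.3 and 46.2 in ZT24 replicates 1 and 2. The ZT9 values lay above those of ZT4 without overlap, but no IAA1 site was present in all 9 lists and none could be tested. IAA14, a repressor of lateral root initiation, had 64.3, 41.9 and 57.1 at ZT4, 39.1 and 14.6 in replicates 1 and 2 at ZT9, and 45.4, 27.2 and 48.5 at ZT24. ARF1, a repressor ARF and the weakest of its family, had 10.2 and 64.1 in ZT4 replicates 1 and 2, 20.9 and 52.4 in ZT9 replicates 1 and 2, and 17.7, 19.1 and 11.0 in the ZT24 lists.

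Closely related genes were then set side by side in 14 pairs, chosen after the values were known. In 4 pairs the mean percentiles were more than 30 points apart, and in 7 pairs less than 10. IAA2 stood 63.8 points above IAA1 and was higher in 8 of 8 lists with both peaks. IAA19 stood 63.0 points above IAA6, which had a peak in 2 lists, but the IAA19 peak had its summit beyond the window, and with summits inside the windows the difference was 32.5. ARF19 stood 37.2 points above ARF7, with the higher value in 9 of 9 lists. The median summit of the best ARF19 peak lay 6358 bp downstream of its TSS, past the end of the 5451 bp gene. That of ARF7 lay 33 bp upstream of its TSS, so the pair does not compare like positions. ARF19 and ARF7 are activator ARFs with overlapping roles in root and hypocotyl responses. IAA7 stood 33.5 points above IAA14. By contrast, IAA11 stood 0.305 points above IAA10 and IAA30 2.53 points above IAA20, and in each of these pairs the gene with the higher mean was higher in 4 of 9 lists. With summits inside the windows, an alternative chosen after the data were seen, the order turned in 2 pairs, with IAA9 at 77.1 against 94.0 for IAA8 and ARF16 at 77.4 against 80.4 for ARF10.

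Sites were then placed along the genes. The 44 windows held 122 pairs of gene and site, and 121 distinct sites, because IAA3 and IAA17 are neighbours that share one. Of the distinct sites, 75 (62.0%) were present in all 9 lists, beside 46.8% of all 28285 nuclear sites. Summits lay upstream of the gene body for 34 of 75 Aux/IAA pairs and 22 of 47 ARF pairs (45.3% and 46.8%), beside 48.9% over all genes. They lay in the gene body for 16 and 11, downstream for 12 and 8, and beyond the window edge for 13 Aux/IAA and 6 ARF pairs. The gene body held 21.3% and 23.4% of pairs, beside 21.1% over all genes, and the downstream part 16% and 17%, beside 21.1%. Beyond the edge lay 17.3% and 12.8%, beside 9.0%. The member was the gene with the nearest TSS for 52 of 75 Aux/IAA and 30 of 47 ARF pairs. The best peak had its summit inside the window in every list with a peak for 22 of 29 Aux/IAA genes and 10 of 15 ARF genes.

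**Figure D2:**
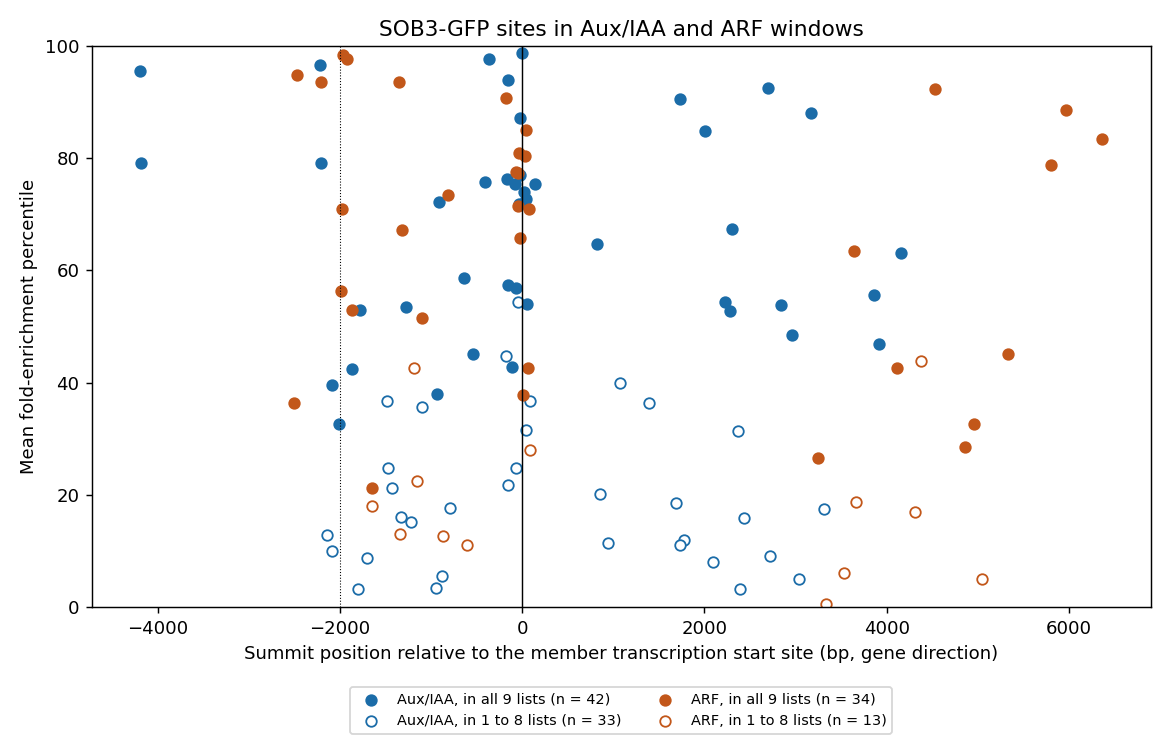
Mean fold-enrichment percentile of each site (vertical axis) against the distance of its summit from the member TSS in bp (horizontal axis, negative is upstream, dotted line at the window edge), with Aux/IAA sites in blue and ARF sites in orange. Filled points are in all 9 lists (42 Aux/IAA and 34 ARF) and lie both near the TSS and far from it. Open points, in 1 to 8 lists, are mostly low.

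The motif words in 300 bp centred on each summit were counted next, for auxin response, PIF and TCP factors and for AT-rich DNA, which AT-hook proteins bind. AuxRE words were in 46 of 121 member windows (38.0%, 95% exact binomial interval 29.3% to 47.3%), against 21.6% of all sites. By family, they were in 31 of 74 Aux/IAA sites (41.9%, 30.5% to 53.9%) and 15 of 47 ARF sites (31.9%, 19.1% to 47.1%). The ARF interval includes the share of all sites. At least 1 site with an AuxRE word was present at 22 of 29 Aux/IAA and 12 of 15 ARF genes. For PIF-like words these counts were 23 and 10, for AT-rich words 24 and 14, and for TCP-like words 13 and 9. The share over all genes was not counted, so these counts by gene show no trait particular to the families. PIF-like words were in 43.8% of member windows (34.8% to 53.1%) against 33.3% of all sites. AT-rich words were in 56.2% (46.9% to 65.2%) against 49.9%. TCP-like words, in contrast, were in 22.3% (15.2% to 30.8%) against 34.3%. The intervals cover counting error only, and sites within 1 window share their neighbourhood.

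Member windows were also tiled into 480 stretches of 300 bp without a site, a comparison chosen after the data were seen. AuxRE words were in 22.3% of these tiles, PIF-like words in 20.4%, AT-rich words in 21.0% and TCP-like words in 14.6%. All 4 shares were below those at member summits. By family, AuxRE words were in 19.1% of Aux/IAA tiles and 25.6% of ARF tiles, the second of which lies inside the interval of the ARF sites. TCP-like words were in 12.6% and 16.7%, both inside the intervals of their sites (11.8% to 31.2% and 13.9% to 40.3%). PIF-like words were in 21.1% and 19.7% and AT-rich words in 28.0% and 13.7%, all below the intervals of their sites. The tiles had a mean GC content of 37.1%, against 32.9% for member summit windows and 32.6% for all sites, and the part of base composition in these shares was not tested. In windows of 100 bp, the member shares were 17.4% for AuxRE, 24% for PIF-like, 28.1% for AT-rich and 7.44% for TCP-like words, against 8.05%, 15.2%, 26.2% and 20.3% of all sites in the same order. The AT-rich share was thus close to that of all sites.

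**Figure D3:**
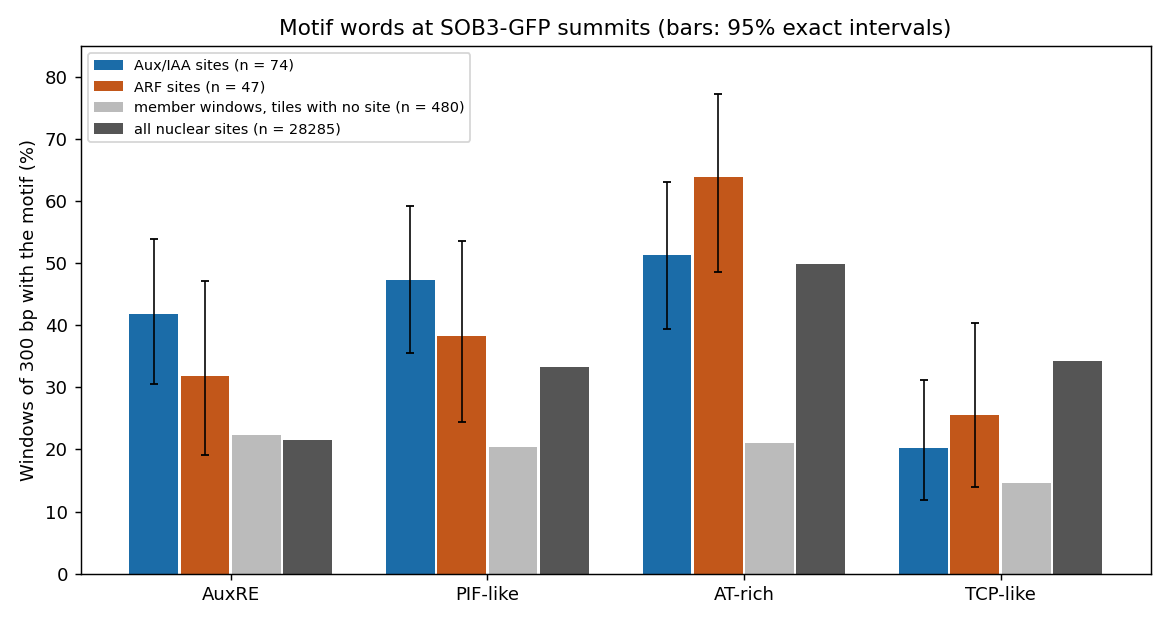
Percentage of 300 bp windows that hold a motif word, for Aux/IAA sites (blue, n = 74), ARF sites (orange, n = 47), tiles without a site in member windows (light grey, n = 480) and all nuclear sites (dark grey, n = 28285), with 95% exact binomial intervals on the member bars. AuxRE words are in 41.9% of Aux/IAA and 31.9% of ARF windows, above both grey bars, but the ARF interval (19.1% to 47.1%) covers both.

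IAA17, IAA19 and IAA29 were looked at more closely, because the study names them. IAA19 (AT3G15540), induced in elongating hypocotyls, had best-peak percentiles of 85.6, 87.7 and 80.6 in the ZT4 lists, 94.1, 84.1 and 94.3 in the ZT9 lists, and 90.6, 86.2 and 89.6 in the ZT24 lists. These came from a site 3165 bp downstream of the IAA19 TSS, whose nearest TSS, 38 bp away, was that of the next gene. The site nearest to the IAA19 start itself, 155 bp upstream, had mean percentiles of 62.8 ± 13.3 in the ZT4 lists, 54.4 ± 17.9 in the ZT9 lists and 55.1 ± 1.18 in the ZT24 lists (SD, n = 3 each), and its fold rank was not called as different between time points (limma F test, adjusted p = 0.720). Its 300 bp summit window held words of all 4 sets.

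IAA17 (AXR3, AT1G04250) is a repressor whose stabilised form alters hypocotyl and root growth. Its best-peak percentiles were 86.2, 86.1 and 79.3 in the ZT4 lists, 77.6, 68.6 and 74.3 in the ZT9 lists, and 83.6, 83.6 and 54.3 in the ZT24 lists, from the site it shares with IAA3 or from one downstream, with the summit outside its window in all lists. With summits inside the window the mean was 61.0.

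IAA29 (AT4G32280), a gene activated by PIF factors, had 4 sites. Its best-peak percentiles were 64.9, 48.1 and 60.8 in the ZT4 lists, 69.8, 75.5 and 82.3 in the ZT9 lists, and 78.1, 66.4 and 73.3 in the ZT24 lists, and came from different sites in different lists. The site 42 bp upstream of its TSS was present at ZT4, at percentiles of 48.2, 48.1 and 29.3, and at ZT24, at 78.1, 49.0 and 73.3, and was absent from all 3 ZT9 lists. The upstream site at 633 bp was present in all 9 lists, with means of 50.8 ± 8.71 in the ZT4 lists, 57.4 ± 21.6 in the ZT9 lists and 67.8 ± 2.91 in the ZT24 lists (SD, n = 3 each).

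The same pattern, with the site in 3 lists at each of ZT4 and ZT24 but in 0 at ZT9, was found for 2 of 121 member sites and for 0.453% of all sites, whose median mean percentile was 29.7. The other one, 872 bp upstream of ARF11, was weak, with a mean percentile of 12.6 against 54.3 for the IAA29 site. In all, 4 of 121 member sites had a peak in 3 lists at one time point and 0 at another, beside 4.2% of all sites. The 2 further ones were at IAA32, described above, and 1154 bp upstream of ARF3, found in 3 ZT4 lists, 1 ZT9 list and 0 ZT24 lists. The IAA29 site could not be entered in the test of fold rank, which needs a peak in all 9 lists. Here too, a missing peak is a signal under the threshold of its list and not an absence of binding.

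**Figure D4:**
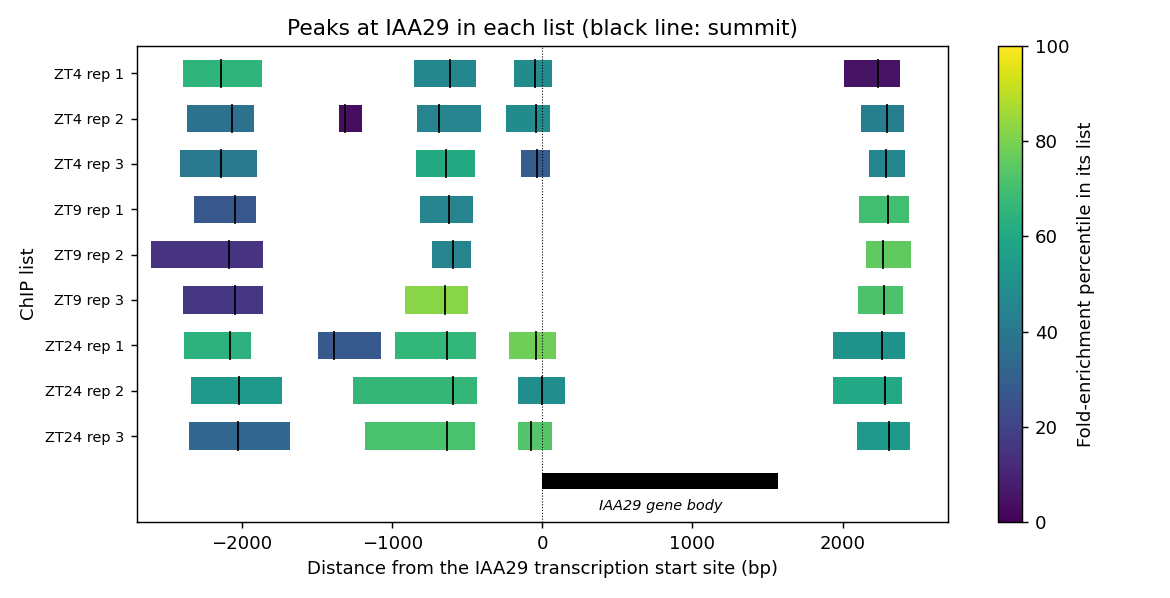
Peaks in the IAA29 window in each of the 9 lists (rows), against the distance from the IAA29 TSS in bp, with the summit as a black line, the fold-enrichment percentile as colour and the gene body as a black bar. The site at the TSS is in all 3 ZT4 and all 3 ZT24 lists and in none of the ZT9 lists, while the site near 633 bp upstream is in all 9. A missing peak is a signal under the threshold of its list.

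Binding strength was compared between time points next. The family medians of the best percentile for Aux/IAA genes were 67.7 ± 3.31 in the ZT4 lists, 74.7 ± 1.35 in the ZT9 lists and 74.2 ± 2.40 in the ZT24 lists (SD, n = 3 lists each). The ARF medians at the same times were 81.0 ± 2.28, 83.4 ± 1.53 and 83.0 ± 2.92. Over all genes they were 64.6 ± 0.637, 64.0 ± 0.245 and 64.2 ± 1.12. Each median covers only the genes with a peak in that list, which for Aux/IAA genes were 27 in every ZT4 list, 24 to 26 in the ZT9 lists and 24 to 28 in the ZT24 lists. The Aux/IAA medians were lowest at ZT4 in this measure, but the time points overlapped once the set of genes was fixed. With genes lacking a peak ranked lowest among all 29, the medians were 60.8 to 70.4 in the ZT4 lists, 70.1 to 73.2 in the ZT9 lists and 66.4 to 76.3 in the ZT24 lists. Over the 22 genes with a peak in all 9 lists they were 73.1 to 79.3, 77.4 to 82.2 and 73.4 to 78.8. These fixed sets were chosen after the data were seen, and no test was applied to the medians.

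Single sites were tested with limma on the fold rank within a list, fitted over all 13251 sites present in all 9 lists with Benjamini-Hochberg adjustment over all of them. Of the 75 member sites in the fit, 8 were called by the F test across time points (10.7%), beside 14.6% of all sites. These were 4 of 41 Aux/IAA sites and 4 of 34 ARF sites. At ZT9 against ZT4, 2 member sites were higher and 3 lower, beside 4.09% and 4.23% of all sites. At ZT24 against ZT4, 1 was higher and 3 lower, beside 2.38% and 2.62%, and at ZT24 against ZT9, 2 were higher and 4 lower, beside 4.63% and 4.35%. Without ZT9 replicate 1 the F test called 5 member sites, beside 1090 of 13391 sites in all. Without ZT4 replicate 2 none was called for ZT24 against ZT4, beside 97 of 13578 sites in all.

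The calls differed with the measure that was ranked. Fold enrichment divides the ChIP pileup by a local background, which MACS2 takes from the input. There was 1 input per time point, and its match to the lists of the same time point was assumed, because the sources used here do not state which input served which list. When sites were ranked by the pileup recovered from the lists instead, 0 of 75 member sites were called (lowest adjusted p = 0.0572 by limma). Over all 13251 sites, 30 were called (0.226%). An unadjusted p under 0.05 was reached by 11 of the 75 member sites, beside 1719 of the 13251. Ranked by the −log10 p of the peak, 2 member sites, at IAA27 and IAA9, were called, beside 1.8% of all sites. At each of the 8 called sites, the time point with the lowest fold rank was also the one with the highest background, which is part of the fold by definition. With inputs matched by time point, the lists of a time point share 1 background. Their spread then holds no difference between inputs, so the adjusted p-values by fold rank cannot separate time from input. The part of the input, of binding and of the sensitivity of each rank in the calls was not tested.

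A site 1353 bp wide on the 3′ side of IAA9 had the lowest adjusted p by pileup rank among the member sites. Its fold percentiles were 79.0, 81.5 and 75.2 in the ZT4 lists, 81.1, 66.7 and 75.5 in the ZT9 lists, and 39.2, 49.5 and 19.9 in the ZT24 lists (limma F test, adjusted p = 0.00839). Its pileup percentiles were 77.0, 78.0 and 72.7 in the ZT4 lists, 70.6, 52.8 and 62.7 in the ZT9 lists, and 42.5, 49.3 and 24 in the ZT24 lists (adjusted p = 0.0572). The ZT24 values lay below the other 6 by both measures, and the summit lay beyond the window edge, nearest to the TSS of another gene.

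The lowest adjusted p by fold rank among the member sites was found 935 bp upstream of IAA27 (AT4G29080), which encodes a degron-bearing repressor. Its fold percentiles were 12.7, 7.59 and 8.22 in the ZT4 lists, 54.8, 58.8 and 78.3 in the ZT9 lists, and 53.3, 45.1 and 22.3 in the ZT24 lists (limma F test, adjusted p = 0.00757). The ZT4 lists lay below the other 6 without overlap. Its background was 1.62 times the genome mean for ZT4 and 1.19 times for both ZT9 and ZT24, and its pileup percentiles at ZT4, 26.3, 41.6 and 39.4, overlapped those at ZT24 (adjusted p = 0.438).

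At the TSS of ARF7 (AT5G20730), an activator of hypocotyl bending and lateral root formation, the fold percentiles were 54.6, 60.5 and 62.6 in the ZT4 lists, 67.6, 21.8 and 51.0 in the ZT9 lists, and 3.88, 2.72 and 14.5 in the ZT24 lists (limma F test, adjusted p = 0.0159). The ZT24 lists were the lowest by fold, but by pileup they stood at 54.3, 55.6 and 57.5, with a background of 1.34 times the genome mean for ZT4, 1.19 times for ZT9 and 2.16 times for ZT24. Pileup rank gave an adjusted p of 0.322.

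The ARF5 site, 1986 bp upstream of a gene needed for embryo and vascular patterning, had 84.5, 75.1 and 62.4 in the ZT4 lists, 30.7, 34.9 and 34.5 in the ZT9 lists, and 63.8, 66.7 and 55.0 in the ZT24 lists (limma F test, adjusted p = 0.0180). The ARF10 site, 1102 bp upstream, had 53.7, 65.7 and 58.2 in the ZT4 lists, 30.2, 37.4 and 11.3 in the ZT9 lists, and 62.9, 73.8 and 71.1 in the ZT24 lists (adjusted p = 0.0196). Both were lowest at ZT9 without overlap by fold. The pileup percentiles of the ARF5 site were 53.7 to 79.5 in the ZT4 lists, 37.9 to 59.0 in the ZT9 lists and 55.6 to 67.0 in the ZT24 lists, so that ZT9 overlapped both other times (adjusted p = 0.347). The pileup percentiles of the ARF10 site, 49.6 to 64.1 in the ZT4 lists, 33.9 to 46.9 in the ZT9 lists and 69.7 to 72.9 in the ZT24 lists, were lowest at ZT9 too (adjusted p = 0.191).

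The IAA17 site 537 bp upstream had 72.0, 58.8 and 62.6 in the ZT4 lists, 39.7, 3.41 and 9.0 in the ZT9 lists, and 72.6, 64.1 and 24.3 in the ZT24 lists (limma F test, adjusted p = 0.0380), so the ZT9 and ZT24 lists overlapped. Its pileup rank gave an adjusted p of 0.630.

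The remaining called sites were downstream of IAA18 and of ARF2, closer to a neighbouring gene in each case. The IAA18 site had 41.5, 46.8 and 56.7 in the ZT4 lists, 71.9, 72.4 and 58.2 in the ZT9 lists, and 28.0, 32.1 and 28.7 in the ZT24 lists (limma F test, adjusted p = 0.0182). The ARF2 site had 91.1, 90.9 and 80.3 in the ZT4 lists, 85.3, 89.4 and 79.8 in the ZT9 lists, and 75.1, 57.9 and 59.9 in the ZT24 lists (adjusted p = 0.0340). Both were lowest at ZT24 without overlap by fold, and by pileup rank their adjusted p-values were 0.992 and 0.782.

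**Figure D5:**
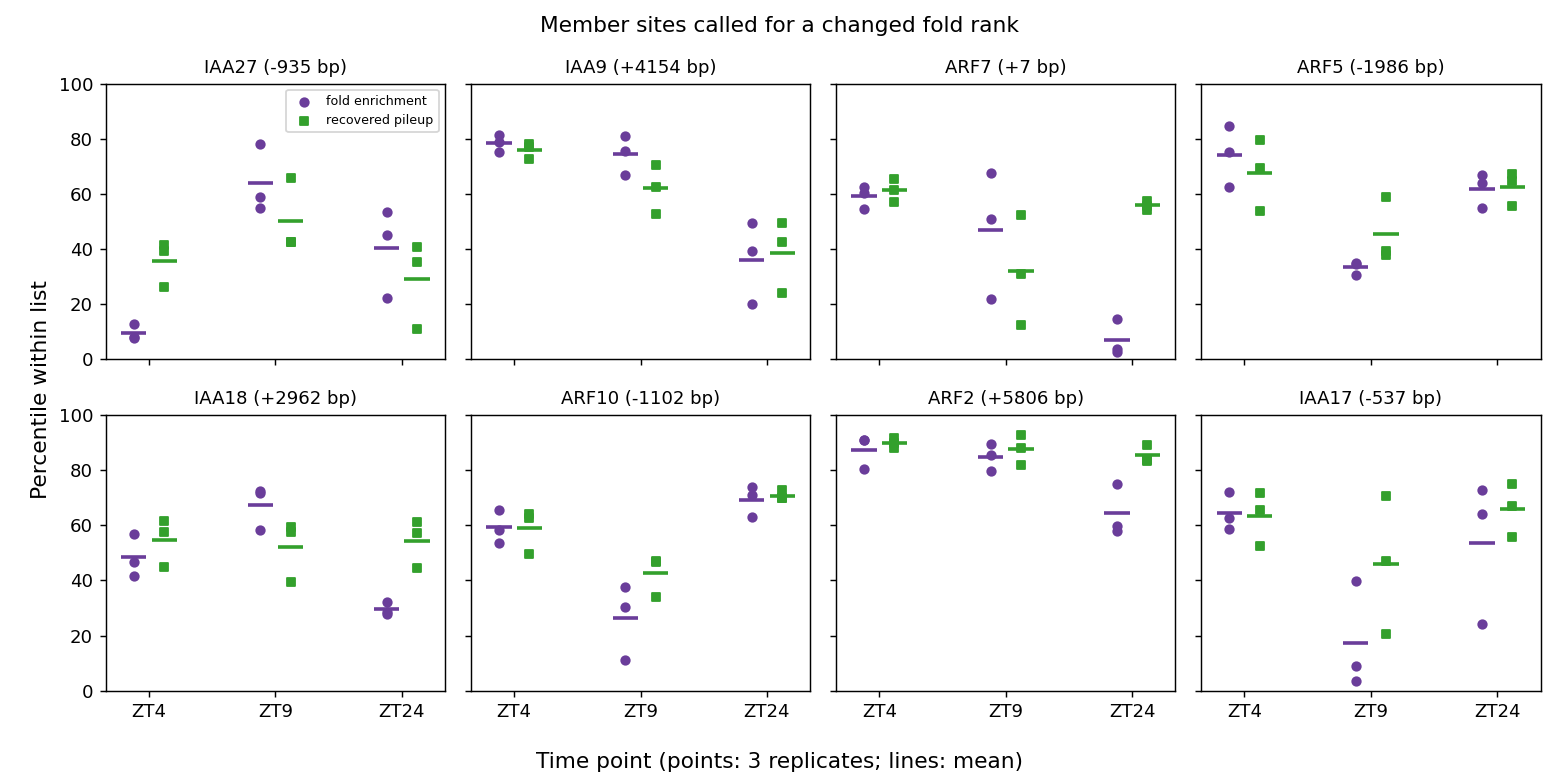
Percentile within its list of the 8 called member sites, by time point, for fold enrichment (purple circles) and for the recovered pileup (green squares), with 3 replicates as points and their mean as a line. By fold, 1 time point stands below the others without overlap in each panel but that of IAA17, and by pileup the same time point does so only at IAA9 and ARF10.

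Most other genes of the pathway were bound too, at a wide range of strengths. Among the auxin receptors, 5 of 6 were bound at all 3 time points, with AFB2 the strongest at a mean percentile of 91 and AFB1, with a peak in 5 lists and a mean of 33.9, the exception. All 5 TOPLESS corepressor genes, whose windows of 9.22 to 11.2 kb are wide, were bound, with mean percentiles from 58.8 for TPR2 to 96.0 for TPL. TPL itself had 94.7, 97.5 and 97.7 in the ZT4 lists, 97.9, 95.9 and 98.0 in the ZT9 lists, and 97.7, 97.1 and 87.4 in the ZT24 lists. All 5 genes of the SCF complex and its activation (ASK1, CUL1, RBX1, AXR1 and ECR1) were bound as well, but RBX1 had a mean percentile of 18.7 from 7 lists and ASK1 35.9 from 8 lists, with a promoter peak in 1, while CUL1 had 90.4. These counts stand beside the 61.3% of all genes given above, a share that is not matched for window width.

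The 8 further ARF genes (ARF12 to ARF15 and ARF20 to ARF23) are close copies of each other on chromosome 1. Only ARF13 was bound, in all 9 lists, and the other 7 had no peak in any list. Only uniquely mapped reads entered the lists, so that reads from near-identical copies are lost, and for these genes a missing peak cannot be told apart from missing reads.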

How the data were processed

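The authors aligned the 9 ChIP and 3 input libraries to TAIR10 using Bowtie (reads with 1 position only) and ran MACS2 on each ChIP replicate with input as control, without pooling. Versions are not given in the sources used here. The authors' lists give a score, a fold enrichment (ratio of pileup to background at the summit), and −log10 p and q values. No read totals were used, so depth is seen only as the lowest background solved from the fold and p-value (12.1 to 15.8 fragments per base), with a maximum error of 0.000308 in −log10 p. Peaks on chromosomes 1 to 5 were joined to RefSeq TAIR10.1 protein-coding genes. Normal scores of fold rank were fitted with limma 3.58.1 in R 4.3.3 (Benjamini-Hochberg, 0.05), after tests on simulated data, and the other tables were made with pandas 2.3.3 in Python 3.11.15. Named genes were the 4 strongest of each family, members not bound in all lists, members with a called site, and IAA17, IAA19 and IAA29. The members and lists were chosen with earlier results of these data known. ZT24 is the title's name for samples whose harvest label reads ZT0. The inputs were not analysed by themselves. Alternatives covered thresholds, windows, ranks, the replicate rule, a replicate block and leaving out each list.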

Additional observations from a re-analysis of the deposited data

How the results depend on the processing

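The counts of members bound at all 3 time points kept within 1.5 times their value under all alternatives run. For Aux/IAA genes they lay between 17 (−log10 q of at least 10, where 34% of all genes were bound) and 26 (1 list sufficing), and for ARF genes between 13 and 15. The Aux/IAA median percentile moved to 64.9 with summits inside the window and to 64.3 by pileup rank, and the ARF median to 77.4 in promoter windows. The median number of sites became 1 per Aux/IAA window and 2 per ARF window at a −log10 q of at least 10, and 1 for both families in promoter windows. Ranked by −log10 p, 2 member sites were called by the F test, 2 for ZT9 against ZT4, 1 for ZT24 against ZT4 and 2 for ZT24 against ZT9, and by pileup rank 0 in each. Over all 13251 sites, the calls by −log10 p were 238, 152, 45 and 154 in the same order. At a −log10 q of at least 5, ZT24 against ZT4 gave 2 calls among 57 member sites, beside 623 of 9282 sites in all. In 100 bp windows the motif shares were 7.44%, 24%, 28.1% and 17.4% for TCP-like, PIF-like, AT-rich and AuxRE words, beside 20.3%, 15.2%, 26.2% and 8.05% of all sites. A shorter window can hold fewer words, but the part of its length in these shares was not tested. The causes of the other shifts were not tested either.

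Same-numbered replicates did not deviate together (correlations of −0.0453 to 0.0577, against −0.107 to 0.0792 for pairs with different numbers). The fold ranks thus gave no sign of pairing by number, but they cannot show how the samples were harvested or processed. With a replicate block, 9 of 75 member sites were called by the F test, beside 1400 of all 13251 sites. The 8 of the unblocked fit were among them. For ZT24 against ZT4, 2 member sites were called, beside 322 of all sites.

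Leaving out each list in turn gave 23 to 24 bound Aux/IAA and 14 to 15 bound ARF genes, medians of 69.6 to 73.0 and 80.5 to 82.9, and 2 and 3 sites per window. The F test then called 5 (without ZT9 replicate 1) to 8 sites, ZT9 against ZT4 2 to 3 whichever list was left out, ZT24 against ZT4 0 (without ZT4 replicate 2) to 4, with 1 without ZT4 replicate 3 or ZT24 replicate 1 or 2 and 2 without ZT4 replicate 1, ZT9 replicate 2 or ZT24 replicate 3, and ZT24 against ZT9 3 (without ZT24 replicate 1 or 2) to 6. Over all 13353 to 13925 sites in these fits, the same tests called 986 to 1260, 492 to 1005, 97 to 591 and 419 to 1092 sites, in the same order. Motif shares ranged over 20.7% to 22.5% (TCP-like), 42.1% to 46.3% (PIF-like), 54.1% to 56.2% (AT-rich) and 37.5% to 40.0% (AuxRE).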
